A study of Mus musculus with 5 samples.

Results

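Hedgehog signalling genes were followed in mouse (CD1) embryonic cortical cells made to express Ptf1a, a basic helix-loop-helix transcription factor that specifies inhibitory neurons. The 9 genes, chosen by name, were the ligand gene Shh, the receptor genes Ptch1, Boc and Cdon, the signal transducer gene Smo, the cytoplasmic inhibitor gene Sufu and the transcription factor genes Gli1, Gli2 and Gli3, and all 9 were found among the 23234 rows of the gene table. Plasmid was electroporated into the cortex of E12.5 embryos, and it drove either both Ptf1a and GFP (3 samples, the Ptf1a group) or GFP alone (2 samples, the GFP-only group). GFP-positive cells were sorted at E15.5 from pools of 3 to 6 brains a sample, so every group value is a mixture over animals and over all cell classes that carried the plasmid. The labels call the cells pyramidal, and the pyramidal genes Neurod6, Neurod2 and Tbr1 were present in both groups (8.29 to 1717 FPKM, that is, fragments scaled to transcript length and to sequencing depth). Nothing in the labels says how the samples relate to separate litters or electroporation days, so the authors' p-values measure the spread between these 5 samples only. The depth is unknown, as the table holds 1 value per gene and group with no SD.

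Hedgehog proteins are secreted signals. In their absence Ptch1 holds the membrane protein Smo inactive, and Sufu retains the Gli proteins and promotes cleavage of Gli3, and partly Gli2, into transcriptional repressors. Ligand bound to Ptch1 with the co-receptors Boc, Cdon or Gas1 releases Smo, Gli2 becomes an activator, and Gli1 and Ptch1 are switched on as targets. In the forebrain Shh comes mainly from ventral sources, while the dorsal telencephalon, from which the cortex forms, depends on Gli3 repressor.

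In the Ptf1a group Smo, Gli2, Gli3, Sufu and Cdon rose, by 1.62 to 4.41 times in FPKM, whereas Boc (2.00 and 1.84 FPKM) was not called. Of the 9 genes, 5 rose and 0 fell at a q under 0.05 in the authors' deposited table (0 fell at an unadjusted p under 0.05 as well), 1 was tested without a call, and 3 (Shh, Ptch1 and Gli1) had no test. Over all tested genes 18.7% rose and 19.1% fell. Among the 3456 tested genes with a mean FPKM inside the range of the tested hedgehog genes (0.356 to 1.92), 27% rose and 7.2% fell. The median log2 difference of the 9 genes was 0.85, on a log2(FPKM + 0.1) scale that understates changes of weak genes, against -0.01 for all tested genes.

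These calls rest on the p-values as deposited. The smallest p of the authors' deposited test, 5e-05, was shared by 1803 rows, among them Smo and Gli2. A q of 0.000329 is therefore the lowest that test gave and does not rank the genes that carry it. A two-sided normal p computed from the deposited test statistic, with Benjamini-Hochberg adjustment over the 11831 tested genes that carry a statistic, called 0 of the 9 genes, with 2 (Smo and Gli2) under an unadjusted 0.05. It called 392 genes higher and 332 lower in all.

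**Figure D1:**
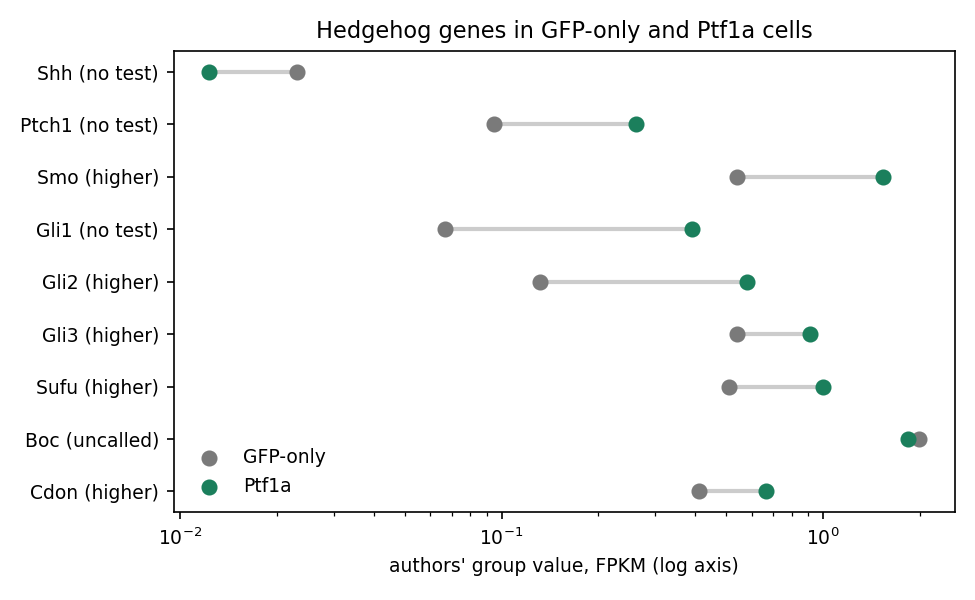
Authors' group value of each hedgehog gene in FPKM on a log axis, with GFP-only in grey and Ptf1a in green, and the call at a deposited q under 0.05 beside each name. Smo, Gli2, Gli3, Sufu and Cdon were called higher, Boc lies at 2.00 and 1.84 FPKM, and Shh lies below 0.03 FPKM in both groups.

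The ligand gene Shh was at the bottom of the set. Its group value was 0.0231 FPKM in GFP-only and 0.0123 FPKM in Ptf1a, the lowest of the 9 genes in both groups, and its row carried no test. The table gives Shh the same locus as the long non-coding gene 9530036O11Rik (0.0558 and 0.0601 FPKM), so the listed interval is not that of Shh alone. Of the other ligand genes, Ihh had 0.160 FPKM in GFP-only and 0.107 FPKM in Ptf1a, above Shh in both groups, and Dhh was listed at 0 in GFP-only and at 0.0387 FPKM in Ptf1a. Neither had a test. All hedgehog ligand genes thus stood at or below 0.160 FPKM in both groups, and ligand made by cells outside the sort was not measured.

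Among receptors, Ptch1 (chromosome 13, 63612841 to 63666828, mm9), which binds the ligand and represses Smo, had 0.0951 FPKM in GFP-only and 0.263 FPKM in Ptf1a, 2.76 times as much, in a row with no test. Smo (chromosome 6, 29685497 to 29711366, mm9), the transducer it represses, rose from 0.542 to 1.54 FPKM. That is 2.84 times, or 1.51 as log2, and the authors' deposited table gives q = 0.000329. The Smo level was 5.70 times that of Ptch1 in GFP-only and 5.86 times in Ptf1a. These ratios rest on the weak Ptch1 values, whose log2 difference ran from 0.21 to 1.38 with pseudocounts of 1 and 0.01. Whether the ratio of transducer to repressor changed was not tested. From the test statistic in the authors' deposited table the Smo rise was not called (adjusted normal p = 0.0804).

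Of the co-receptor genes among the 9, 1 (Cdon) was called and 1 (Boc) was not. Boc (chromosome 16, 44485158 to 44558983, mm9) had 2.00 FPKM in GFP-only and 1.84 FPKM in Ptf1a, the highest level of the 9 genes in both groups. The authors' deposited table gives it q = 0.665 at a log2 fold of -0.12, and the ratio of that fold to the test statistic gives an implied standard error of 0.42 on the log2 scale. Cdon (chromosome 9, 35259661 to 35315237, mm9), a membrane protein of the same immunoglobulin and fibronectin repeat family as Boc, rose from 0.411 to 0.664 FPKM (q = 0.0216 at a log2 fold of 0.69 in the authors' deposited table). Its rise was the smallest of the 5 called, and from the test statistic in the authors' deposited table it was not called (adjusted normal p = 0.615). The unrelated co-receptor gene Gas1 (chromosome 13, 60275766 to 60278896, mm9), which encodes a protein anchored to the outer membrane by a lipid, was not among the 9 but belongs beside them. Gas1 rose from 0.650 to 3.70 FPKM, 5.69 times (q = 0.000329 at a log2 fold of 2.51 in the authors' deposited table), and was also called with the normal p (adjusted normal p = 0.000150). The order of co-receptor levels was thus Boc, Gas1, Cdon in GFP-only and Gas1, Boc, Cdon in Ptf1a. Boc made up 65.3% of the summed FPKM of the co-receptors in GFP-only and 29.7% in Ptf1a, while Gas1 went from 21.3% to 59.6%. Whether neighbours in these orders differ beyond the spread between samples could not be assessed from group values.

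Sufu (chromosome 19, 46471408 to 46561150, mm9), which binds and restrains the Gli proteins, rose from 0.512 to 1.00 FPKM, 1.95 times. The authors' deposited table gives q = 0.0308 at a log2 fold of 0.97, the weakest q of the 5 calls, and its adjusted normal p was 0.621. Sufu lay just below Gli3 in level in GFP-only and just above it in Ptf1a.

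All Gli genes had higher values in the Ptf1a group, and in plain FPKM the rarer ones had the larger ratios. The place of Gli1 in that order rests on its weak values. With a pseudocount of 1 the log2 difference was 0.38 for Gli1, 0.48 for Gli2 and 0.31 for Gli3. Gli1, a target and amplifier of the pathway, had 0.0667 FPKM in GFP-only and 0.391 FPKM in Ptf1a, 5.87 times, in a row with no test. Its listed locus is shared with the neighbouring gene Arhgap9, which had 0.0569 and 0.00455 FPKM. Gli2 (chromosome 1, 120730638 to 120950196, mm9), the main activator, rose from 0.132 to 0.581 FPKM, 4.41 times. The authors' deposited table gives Gli2 q = 0.000329 at a log2 fold of 2.14 (adjusted normal p = 0.0786). Gli3 (chromosome 13, 15555556 to 15821858, mm9), the main repressor, rose from 0.540 to 0.910 FPKM, 1.68 times. For Gli3 the authors' deposited table gives q = 0.00447 at a log2 fold of 0.75 (adjusted normal p = 0.464). Gli3 had the highest level of the Gli genes in both groups. Its level was 4.10 times that of Gli2 and 8.11 times that of Gli1 in GFP-only, and 1.57 and 2.32 times in Ptf1a. As a share of the summed Gli FPKM, Gli3 made up 73.2% in GFP-only and 48.3% in Ptf1a, Gli2 17.8% and 30.9%, and Gli1 9.02% and 20.8%. These are descriptions of group values, with no test of the change in ratio, and transcript levels do not show which Gli proteins were cleaved to repressors.

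**Figure D2:**
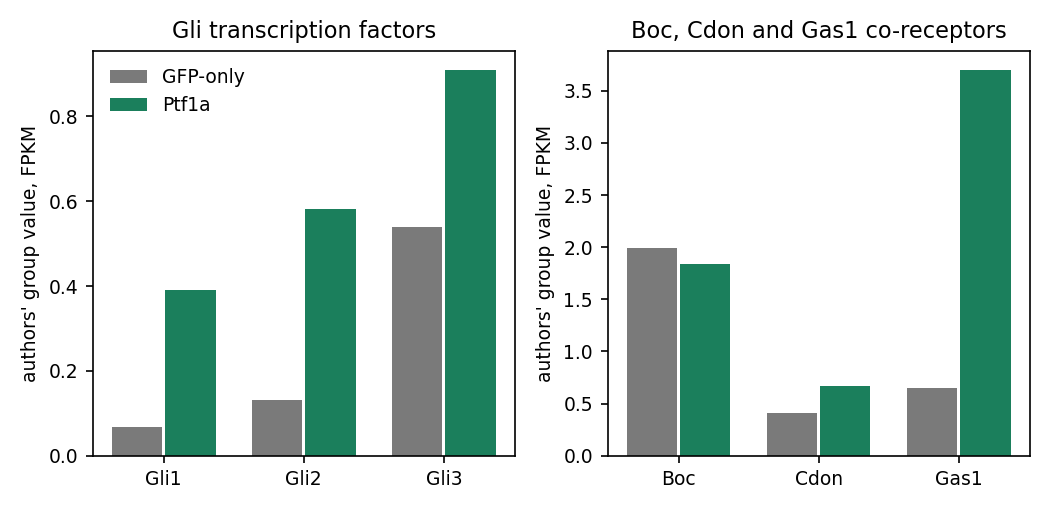
Authors' group value in FPKM (bars from 0, GFP-only grey, Ptf1a green, no error bars because no per-sample values were used) of the Gli genes on the left and of Boc, Cdon and Gas1 on the right. All Gli bars are higher in Ptf1a, with Gli3 the tallest in both groups, and Gas1 passes Boc.

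Expression level separated the tested from the untested members. The lowest higher group value of any tested gene was 0.506 FPKM, so by definition 0 of the 11078 rows under it had a test. Of the 12156 rows that reached it only 280 lacked one. Shh, Ptch1 and Gli1 lay below this level, with Gli1 at 0.391 FPKM in its higher group, so their lack of a call carries no information on change. Gli2 and Cdon reached it in the Ptf1a group only, which means that they could enter the test because they were higher there. Smo, Gli3, Sufu and Boc reached it in both groups.

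Weak genes as a whole were shifted upward. In the lowest of 10 bins of mean FPKM, which holds Gli2, Gli3 and Cdon, the median log2 difference of tested genes was 0.47 and 30.8% rose; in the next bin, with Smo and Sufu, it was 0.20 and 26.1% rose. Relative to the median of its own bin, Gli2 stood 1.09 higher in Ptf1a, Smo 1.15 and Sufu 0.65, Gli3 only 0.19 and Cdon 0.12, all on the log2 scale. Gli3 and Cdon thus lay close to the typical tested gene of their abundance, and Boc lay 0.27 below it (-0.27). At the mean of Gli2, 0.356 FPKM, a gene could be tested only if 1 group value reached 0.506 FPKM and the other was lower. The distance of Gli2 from its bin median was therefore partly fixed by entry to the test.

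**Figure D3:**
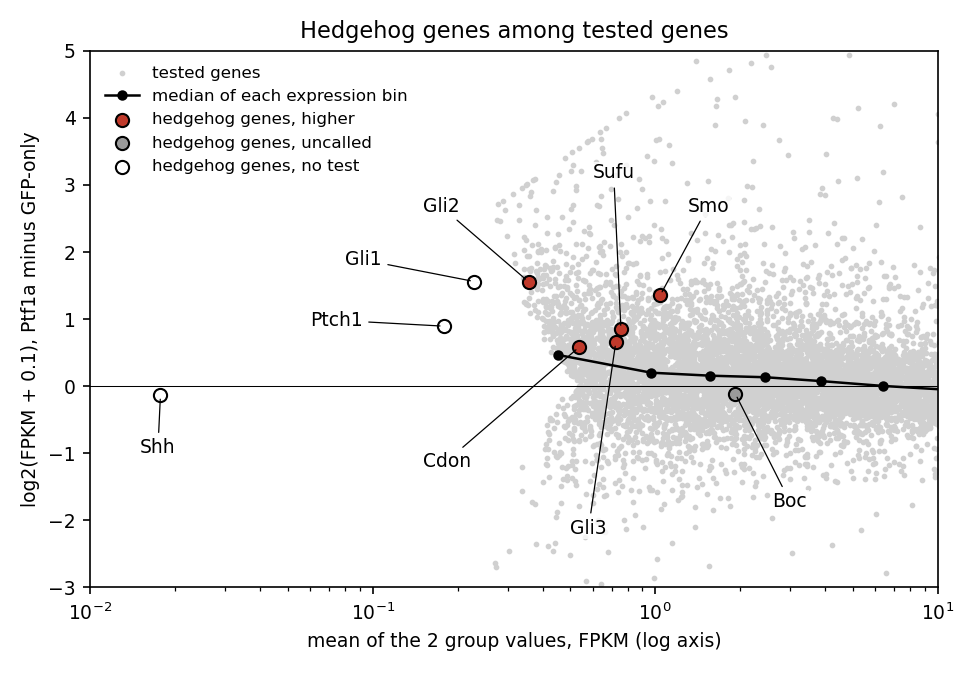
Log2(FPKM + 0.1) difference, Ptf1a minus GFP-only, against the mean of both group values (log axis) for the 7443 of 11876 tested genes that fall within the axes (grey), with bin medians in black and the hedgehog genes marked by call. Gli2 and Smo lie well above the bin medians, Gli3 and Cdon near them, and Gli1, Ptch1 and Shh lie left of the tested genes. For Gli2 that height is partly fixed by the level needed for a test.

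Promoter sequences were examined because 5 of the genes rose together. RefSeq (GRCm38.p6) gave 250 bases upstream of a start site for Ptch1, Smo, Gli2, Gli3, Sufu and Cdon, 6 of the 9. The windows of Smo, Gli3 and Sufu end at the outermost start of the gene and are shown in full, 5′ to 3′ on the gene's strand, with CpG dinucleotides in capitals. The Smo window is chr6:29735247-29735496, that of Gli3 chr13:15463473-15463722 and that of Sufu chr19:46396646-46396895, all on the plus strand.
Smo: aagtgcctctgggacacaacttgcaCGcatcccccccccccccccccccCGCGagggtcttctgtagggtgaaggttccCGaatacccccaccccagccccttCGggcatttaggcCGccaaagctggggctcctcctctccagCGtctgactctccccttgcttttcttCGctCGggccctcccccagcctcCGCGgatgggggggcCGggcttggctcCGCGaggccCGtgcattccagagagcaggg
Gli3: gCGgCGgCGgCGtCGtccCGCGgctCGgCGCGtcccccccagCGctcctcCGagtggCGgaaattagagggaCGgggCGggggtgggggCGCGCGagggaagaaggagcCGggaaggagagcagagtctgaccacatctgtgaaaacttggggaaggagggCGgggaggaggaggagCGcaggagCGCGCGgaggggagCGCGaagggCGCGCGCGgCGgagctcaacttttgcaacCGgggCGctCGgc
Sufu: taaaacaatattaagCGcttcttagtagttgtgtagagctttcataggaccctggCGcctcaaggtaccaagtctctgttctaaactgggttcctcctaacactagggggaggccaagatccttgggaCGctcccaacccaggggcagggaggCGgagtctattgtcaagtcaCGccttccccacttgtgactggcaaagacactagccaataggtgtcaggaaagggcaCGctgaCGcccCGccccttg
The sequences differ in CpG content: 34 CpGs for Gli3, 15 for Smo and 8 for Sufu, against a median of 6 over 32851 promoter windows. Over the 6 genes, GC content ran from 42.8% at Cdon to 78.4% at Ptch1, and CpG counts from 1 to 41. The Cdon window, at a start site inside the gene, had the only CpG count below the median. Among the risen genes alone, GC content ran from 42.8% at Cdon to 72.8% at Gli3.

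Motifs were then searched on both strands of these 250 bases. The Gli consensus GACCACCCA was in 0 of the 6 windows and in 0.225% of all windows. The E-box CANNTG, the type of site that Ptf1a binds with an E-protein, was in 2 of 6 windows and in 66.2% of all windows. TGGGAA, the site of its partner Rbpj, was in 0 of 6 and in 21.6% of all windows. The E-boxes found are shown in capitals within 60 bases, since they are the only matches of any of these motifs: Gli3 at chr13:15463580-15463639 and Sufu at chr19:46396801-46396860.
Gli3: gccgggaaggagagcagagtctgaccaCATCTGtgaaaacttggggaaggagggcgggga
Sufu: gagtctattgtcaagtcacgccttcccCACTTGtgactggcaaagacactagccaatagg
The match in Gli3 begins 116 bases before the start site and that in Sufu 68 bases before it. A match is a description of the letters, and distant enhancers, where many Gli and Ptf1a sites lie, were not covered.

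Of 74 other genes of the pathway, 51 were tested, 6 rose and 8 fell, beside 18.7% higher and 19.1% lower over all tested genes. The median log2 difference of all 74 genes was -0.01. With the normal p, 2 of the tested genes were called higher (Gas1 and Ccnd2) and 0 lower. Among genes of ligand release 0 rose (0 at an unadjusted p under 0.05 and 0 with the normal p) and 2 of 3 tested fell. Disp1, whose product releases lipid-modified ligand from the cells that make it, fell from 0.955 to 0.389 FPKM, and Scube1, a secreted protein of a family that carries ligand, from 1.65 to 1.16 FPKM. Disp1 reached the lowest tested level of 0.506 FPKM in GFP-only alone, so it could enter the test because it was higher there. Its locus is listed on the sequence 1_random, outside the assembled chromosome. Disp2 was not called (1.12 and 1.05 FPKM). Of the other membrane proteins that bind ligand, Gas1 rose as given above. The decoy receptor gene Hhip, a target gene, had 0.0953 FPKM in GFP-only and 0.195 FPKM in Ptf1a and, like Ptch1, no test.

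Other proteins act on Smo in the cilium and on Gli proteins in the cytoplasm. Over all tested genes 18.7% rose and 19.1% fell, and nothing particular to the 3 lists that follow is read from their counts. Of 8 tested ciliary regulators, 0 rose (0 at an unadjusted p under 0.05 and 0 with the normal p) and 1 fell, the beta-arrestin gene Arrb2 (18.2 to 13.2 FPKM), while Mgrn1 (15.0 and 15.8 FPKM) and the kinase gene Adrbk1 (7.34 and 6.54 FPKM) were not called. Of 15 kinase and degradation genes, Gsk3b, a kinase that phosphorylates Gli proteins, rose from 12.7 to 18.0 FPKM. Cul1, a ubiquitin ligase scaffold, fell from 29.5 to 20.3 FPKM. The casein kinase genes Csnk1a1 (90.1 and 85.2 FPKM) and Csnk1e (41.5 and 35.5 FPKM) were among the 13 uncalled. Of 18 tested genes of ciliary transport and the transition zone, 1 rose and 3 fell. Dync2h1, the motor of return transport, rose from 0.547 to 0.822 FPKM, while Ift122 fell from 2.79 to 1.34 FPKM, Kif3b from 2.20 to 1.44 FPKM and Kifap3 from 24.4 to 19.5 FPKM. Kif3a, partner of Kif3b in the outward motor, was not called (36.6 FPKM in both groups), nor was B9d1 (61.0 and 72.4 FPKM).

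Of 6 tested genes known as hedgehog targets, 3 rose and 1 fell, beside 18.7% higher and 19.1% lower over all tested genes, and nothing particular to targets is read from so small a count. The cyclin genes Ccnd2 (25.7 to 99.2 FPKM) and Ccnd1 (4.68 to 6.79 FPKM) and the survival gene Bcl2 (2.01 to 4.81 FPKM) rose, Mycn fell from 19.9 to 12.8 FPKM, and Sfrp1 (5.70 and 6.96 FPKM) and Rab34 (6.86 and 6.20 FPKM) were not called. From the test statistics in the authors' deposited table, Ccnd2 alone among these was called (adjusted normal p = 4.38e-14). These genes also respond to other signals and belong to the cell cycle and survival machinery. The ventral patterning targets Foxa2, Nkx2-1, Nkx2-2, Nkx2-9, Nkx6-1, Nkx6-2 and Olig2, which high hedgehog signalling induces in the ventral neural tube, had no test and stood between 0 and 0.290 FPKM in both groups. Foxa2 was listed at 0 in both.

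**Figure D4:**
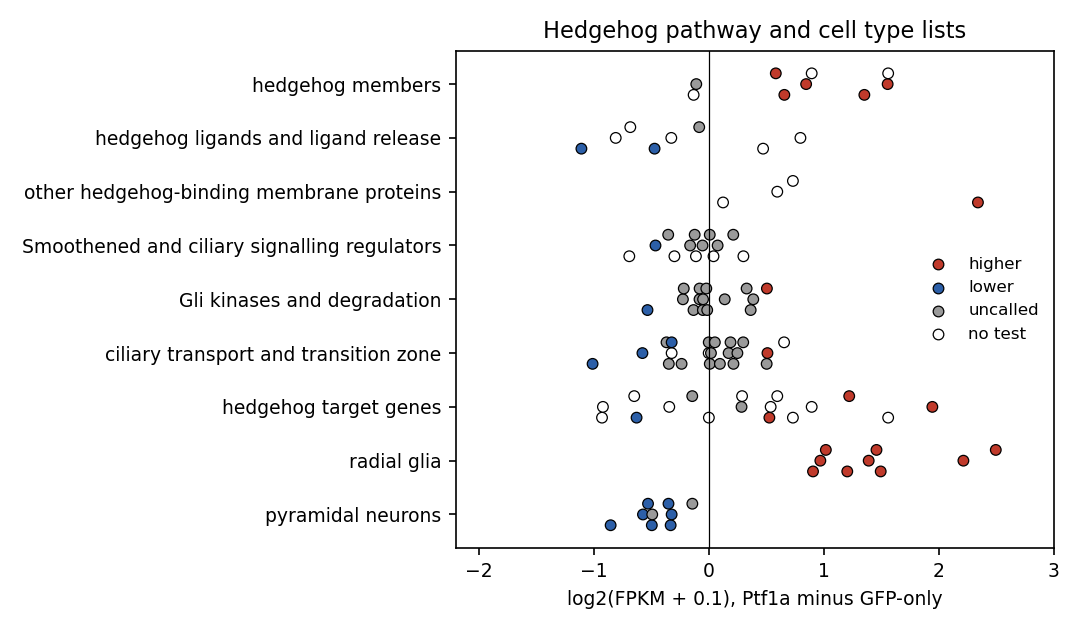
Log2(FPKM + 0.1) difference, Ptf1a minus GFP-only, of each gene (points, coloured by call and spread vertically for legibility) in the hedgehog set, the pathway lists and the radial glia and pyramidal neuron markers. The hedgehog set and the radial glia markers lie mostly right of 0, the kinase and ciliary lists around 0, and the pyramidal markers left of it.

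Markers of cell classes moved along with the hedgehog genes. For the counts below, 18.7% of all tested genes rose and 19.1% fell. In the highest of the 10 bins of mean FPKM, which holds Fabp7 and Neurod6, 3.79% rose and 58.2% fell. Radial glia, the cortical stem cells, express Smo, Gli2 and Gli3, and all 9 radial glia markers rose (summed 1802 FPKM in GFP-only and 3457 FPKM in Ptf1a, median log2 difference 1.39; 8 called with the normal p). Of 9 pyramidal neuron markers 7 fell and 0 rose (0 at an unadjusted p under 0.05 and 0 with the normal p, which called 1 lower; summed 1879 and 1310 FPKM). Fabp7 (1652 and 3095 FPKM) made up most of the radial glia sums, and Neurod6 (1717 and 1190 FPKM) most of the pyramidal sums. In sorted bulk samples more cells of a class and more RNA per cell cannot be told apart, and the part of these markers in the hedgehog result was not tested. Of 9 ventral forebrain markers, which mark cells closer to the Shh source, 4 were tested and 2 of these rose (Dlx5 and Lhx6, 0 with the normal p). All 9 summed to 7.17 and 12.8 FPKM, and the part of such cells was not tested either. The floor plate markers Shh, Foxa2 and Ntn1 summed to 0.119 and 0.285 FPKM and the oligodendrocyte precursor markers to 0.393 and 0.738 FPKM, with no test in either list. Meningeal markers summed to 4.07 and 2.56 FPKM (1 of 2 tested fell), endothelial markers to 3.11 and 4.46 FPKM, microglial markers to 13.9 and 10.1 FPKM (1 of 4 fell), and red blood cell markers to 149 and 62.1 FPKM (3 of 5 fell). As a check of the labels, Ptf1a itself stood at 0.210 FPKM in GFP-only and 38.9 FPKM in Ptf1a.

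The tested genes whose group values lay nearest to those of Gli2, the called member with the largest log2(FPKM + 0.1) difference, were Ghr (0.140 and 0.589 FPKM), Cpt1a (0.117 and 0.569 FPKM) and Dapk2 (0.137 and 0.630 FPKM). Their distances from Gli2 were 0.06, 0.10 and 0.11, measured as Euclidean distance over 2 group values, which is too few to define a shared pattern.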

How the data were processed

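RNA was measured in 3 Ptf1a and 2 GFP-only samples, amplified from 2.1 to 7.8 ng of total RNA, which adds variation to weak genes. Per the submitters' processing notes the authors' tools were Cufflinks 2.1.1 with Cuffdiff, TopHat2 2.0.8 and CASAVA 1.8.2, on mm9; annotation, library scaling, strand setting and parameters are not given in the sources used here. The deposited table holds 1 FPKM value per gene and group, the log2 fold change (Ptf1a over GFP-only), a signed test statistic (a score), a p-value and a q-value, per the file headers. The heading PIG was read as the Ptf1a construct, the only group beside GFP. The rule of q under 0.05 differed from the authors' significance column in 0 rows, and q recomputed by Benjamini-Hochberg over the 11876 tested genes differed by at most 5.2e-07.

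Computed here (Python 3.11.15, numpy 2.4.6, pandas 2.3.3, scipy 1.17.1) were log2(FPKM + 0.1) differences, level ratios, counts per list, 10 bins of mean FPKM and motif searches; the adjustment was tested on simulated data. Starts were read as counting from 0 and printed from 1, because 7148 locus spans then equal a RefSeq gene length, against 451 otherwise. The members and lists were chosen with earlier results of these data known. Named were all members, Ptf1a, up to 4 called and 2 uncalled genes per pathway list, and the 3 genes nearest to the most changed called member; Ihh, Dhh, Hhip, genes sharing a locus, ventral targets and cell markers were named after their values were seen. No set test was made. Alternatives changed the q threshold, FPKM and fold minimums, the p, the pseudocount and the centring.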

Additional observations from a re-analysis of the deposited data

How the results depend on the processing

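No paired analysis was possible because the table holds 1 value per group and no column for a sample, so leaving out a replicate could not be run either. The 5 risen hedgehog genes became 3 (Smo, Gli2 and Gli3) at a q under 0.01, 4 with a 1.5-fold minimum on the log2(FPKM + 0.1) scale, which leaves out Cdon (1.62 times in FPKM), 5 at a q under 0.1, 1 (Smo) among genes of at least 1 FPKM, which removes the weaker members, and 0 with the normal p of the deposited test statistic; 0 fell under every one of these settings. For the other pathway genes, 6 risen and 8 fallen became 3 and 3 with that minimum (in plain FPKM, Dync2h1 and Kif3b would also pass) and 2 (Gas1 and Ccnd2) and 0 with the normal p, and stayed within 1.5 times under the other 3 settings. Sufu, at 0.999923 FPKM in Ptf1a, fell just short of the 1 FPKM minimum and was left out by it. Tested members kept their direction under all pseudocounts and centrings. For members without a test, the log2 difference with pseudocounts of 0.01 and 1 and centred on all tested genes was -0.57, -0.015 and -0.12 for Shh (-0.13 as reported), 1.38, 0.21 and 0.90 for Ptch1 (0.89), and 2.39, 0.38 and 1.57 for Gli1 (1.56). Centring on expression bins could not be done for them, since they lie below the tested range. Of 60 other list counts, 41 stayed within 1.5 times. The depth per sample is unknown, and most members lie under 1 FPKM.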

Other observations

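Dorsal telencephalic signals and factors, a list chosen after the values of the hedgehog lists were seen, had 3 risen and 0 fallen of 5 tested members (0 fell at an unadjusted p under 0.05; 2 risen with the normal p). Over all tested genes 18.7% rose and 19.1% fell, and nothing particular to this list is read from so small a count. Wnt5a, a secreted Wnt ligand, rose from 0.0710 to 3.22 FPKM, and the authors' deposited table gives q = 0.000329 at a log2 fold of 5.50. Emx2, a homeodomain factor of the dorsal telencephalon, rose from 0.511 to 3.13 FPKM, and Bmp7, a secreted bone morphogenetic protein, from 0.157 to 0.643 FPKM. Emx1 (8.31 and 11.2 FPKM) and Lef1 (0.440 and 0.623 FPKM) were not called, and Wnt3a, Wnt8b, Wnt2b, Bmp2, Bmp4, Fgf8 and Axin2 had no test. Wnt5a, Bmp7 and Lef1 reached the lowest tested level of 0.506 FPKM in the Ptf1a group only, Emx1 and Emx2 in both groups. The count of risen genes in this list was therefore partly fixed by entry to the test.

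Zic and Glis genes, whose products carry zinc fingers related to those of Gli proteins, had 0 called of 2 tested members (0 higher and 1 lower at an unadjusted p under 0.05, and 0 with the normal p). Zic4 stood at 0.756 and 0.504 FPKM and Glis2 at 1.63 and 1.31 FPKM, and the other 6 had no test. This list, too, was chosen after the hedgehog values were seen.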
